A study of Homo sapiens with 6 samples.

Results

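Among the small RNAs counted in exosomes of HaCaT keratinocytes, the authors predicted new miRNAs from the reads and named many of them after a miRNA of another species, given in parentheses. These foreign-named predictions were taken as every row of the 2 predicted tables, higher and lower, with such a name, apart from those named after ptr-miR-1246. They fill 87 of the 276 deposited rows. Rows with identical read counts in all 6 libraries were counted once, which leaves 72 distinct entries of 250 in the series, 33 listed as higher and 39 as lower in H2O2 exosomes. The choice used names and counts of identical rows only, but the tables themselves hold rows that the authors selected for a difference, with p-values of at most 0.049 in the authors' deposited table.

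Exosomes, the small vesicles that cells release, were collected by ultracentrifugation from medium of HaCaT, an established line of human skin keratinocytes, and their small RNA was sequenced. H2O2 exosomes came from 3 cultures given 0.4 mM H2O2, an oxidant, for times labelled 24, 25 and 26 h in replicates 1, 2 and 3, and untreated exosomes from 3 cultures without it. The labels call the replicates biological, the series text gives 24 h for all, and time cannot be told apart from replicate number within the H2O2 group. Fewer vesicles of a kind and less of a miRNA per vesicle cannot be told apart in such bulk samples. Levels are counts per 1000000 reads (CPM) of a library total recovered from the deposited values, 2449856 to 4131478 reads in H2O2 and 2644362 to 5405525 reads in untreated libraries.

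MicroRNAs are short RNAs cut from 1 or both arms of a hairpin, written 5p and 3p, and they recognise messenger RNAs mainly through the seed, bases 2 to 8 from the 5′ end. A catalogue gives the same number to related miRNAs of different vertebrates, so mouse miR-320 and human miR-320 are relatives, while a match to an insect or worm name is often no more than a shared seed or short run. A prediction from reads is a candidate: it has a mapped position and a possible hairpin, and need not be a processed miRNA. The names here begin with a number or letter that reads as a human chromosome, followed by a running number and the arm, so 17_21309-3p (sma-miR-8464-5p) is read as a 3p entry placed on chromosome 17 and matched to a miRNA of the blood fluke Schistosoma mansoni. No sequence or position of the entries was used here.

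Some of these entries had the same read counts in every library as a catalogued human miRNA in the same tables, and the human sequences are shown so that each foreign name can be set beside the human miRNA with its counts. Whether the reads themselves are the same was not tested. The entry 16_19541-3p (ppy-miR-3154), named after an orangutan miRNA, stands for 4 rows on chromosome 16 whose counts were identical in every library to those of human hsa-miR-3179, a miRNA with 4 hairpins in RefSeq, all on chromosome 16. The mature sequences of hsa-miR-3179 and of hsa-miR-3154, the human miRNA with the number of the match, are given below from RefSeq (GRCh38.p14), 5′ to 3′, with the seed in capitals.
hsa-miR-3179: aGAAGGGGugaaauuuaaacgu
hsa-miR-3154: cAGAAGGGgaguugggagcaga
The first is encoded at chr16:14901559-14901580 and chr16:16300210-16300231 on the plus strand and at chr16:18411905-18411926 and chr16:18494504-18494525 on the minus strand, the second at chr9:128244956-128244977 on the minus strand. They share a run of 8 bases, which starts at base 1 of hsa-miR-3179 and at base 2 of hsa-miR-3154, so their seeds are offset by a base and are not the same.

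The entry 3_4729-5p (str-miR-279-5p), named after a nematode miRNA, had the counts of hsa-miR-570-5p and hsa-miR-548ai, 3, 1 and 16 reads in H2O2 replicates 1 to 3 against 0, 1 and 2 in untreated ones, whose mature sequences are identical over all 22 bases. The hairpin of hsa-miR-570-5p lies on chromosome 3, as the entry's name has it, and that of hsa-miR-548ai on chromosome 6. The entry 20_23682-5p (bmo-miR-3204a-3p), named after a silkworm miRNA, had the counts of hsa-miR-6871-5p, whose hairpin is on chromosome 20.
hsa-miR-570-5p: aAAGGUAAuugcaguuuuuccc
hsa-miR-548ai: aAAGGUAAuugcaguuuuuccc
hsa-miR-6871-5p: cAUGGGAGuucggggugguugc
The remaining identical pair joined 19_22731-3p (mdo-miR-7327-5p) to hsa-miR-193a-3p, with 9 reads in all over the 6 libraries. Its RefSeq hairpin lies on chromosome 17 and not 19, and this agreement rests on few reads. Over all predicted rows with the counts of a known miRNA that has a RefSeq entry, the name's chromosome was that of a known hairpin in 9 of 10. Of these rows, 4 are the copies counted once as 16_19541-3p, and 3_4729-5p counts as a match through hsa-miR-570-5p alone.

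A wider search, chosen after the values were seen, asked which known miRNAs differed from an entry by at most 1 read or 20% of the larger count in every library, for entries with at least 20 reads in all. It linked 8 of the 72 entries to a listed human miRNA, 10 together with those having identical counts. The planarian-named 10_13692-3p (sme-miR-753d-5p), with a second row on chromosome 10, had 1010 reads against 1011 for hsa-miR-3158-3p, a difference of 1 read in untreated replicate 3. The cow-named 21_24445-3p (bta-miR-2327), deposited as 6 rows on chromosomes 11 and 21, differed from hsa-miR-4488 by 1 read of 52. The chicken-named 2_3026-5p (gga-miR-1456-3p) had 1119 reads against 1235 for hsa-miR-7704, and was the smaller in every library.
hsa-miR-3158-3p: aAGGGCUUccucucugcaggac
hsa-miR-4488: aGGGGGCGggcuccggcg
hsa-miR-7704: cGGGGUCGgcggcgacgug
Their positions are chr10:101601466-101601487 (plus strand) and chr10:101601427-101601448 (minus strand) for hsa-miR-3158-3p, chr11:61508599-61508616 (plus strand) for hsa-miR-4488 and chr2:176188843-176188861 (plus strand) for hsa-miR-7704. Each lies on a chromosome that the entry's name gives, 10 for hsa-miR-3158-3p, which has 2 hairpins there on opposite strands, 11 for hsa-miR-4488 and 2 for hsa-miR-7704. The platypus-named 10_13355-3p (oan-miR-1422q-3p) had 260 reads against 265 for hsa-miR-548e-3p. Linked at lower counts, 17_21303-3p (ppc-miR-2238g-3p) had 25 reads and 17_20621-3p (tca-miR-3876-3p) 22, against 24 for hsa-miR-1268b, which lies on chromosome 17. The pair 17_21303-3p and hsa-miR-1268a also met the rule. Only rows with identical counts were merged. An entry and a known miRNA with nearly equal counts thus stay separate among the distinct entries and, with enough reads, in the test below. They should not be read as 2 independent observations.

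**Figure D1:**
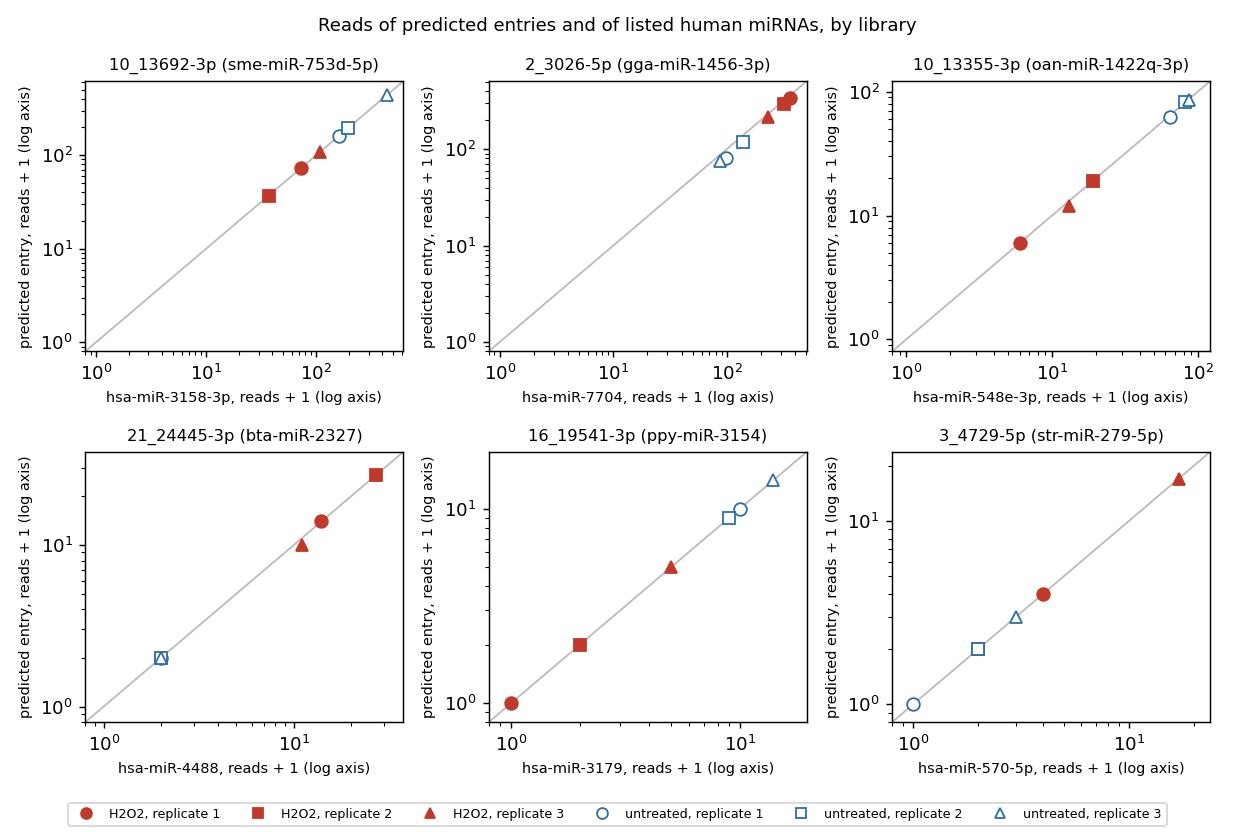
Reads + 1 of 6 predicted entries (vertical) against those of a listed human miRNA (horizontal), both on log axes, 1 point per library, filled for H2O2 and open for untreated, with the line of equality in grey. Points lie on or close to the line, and for 2_3026-5p just under it.

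In H2O2 exosomes 16 of these entries rose and 10 fell, 26 of the 32 that had enough reads to test, at least 5 in at least 3 libraries. The test was edgeR's quasi-likelihood test over all 170 distinct entries with enough reads, known and predicted, with p-values adjusted by Benjamini-Hochberg and called under 0.05. Of those 170, 79.4% passed, 37.1% higher and 42.4% lower, since all rows were selected for a difference. The count for the foreign-named entries is close to that background. The tested entries had log2 fold changes of 0.84 to 4.97 when listed as higher and -3.18 to -1.67 when listed as lower. Their median was 2.40 among the 21 listed as higher, against 1.58 over all 92 tested entries listed as higher. It was -2.51 among the 11 listed as lower, against -1.70 over all 78. These medians depend on the filter, since a sparse entry can pass it through the group where it is high alone. Of the tested entries, 1_131-3p, 21_24445-3p and 15_19190-3p, listed as higher, and 1_167-3p, 16_19541-3p, 19_23131-3p and 2_2408-3p, listed as lower, had no library with 5 reads in their low group. All 7 passed the test, 3 of the 16 rises and 4 of the 10 falls, and having met the filter that way they had to differ. Further tested entries also needed their high group, with at least 5 reads in only 1 or 2 low-group libraries, fewer than the filter's 3. They were 17_20708-5p, 11_14849-5p and 6_8830-3p, listed as higher, and 19_22935-3p, 15_19014-3p, 19_23292-3p, 10_13464-3p and 20_24130-3p, listed as lower. All but 20_24130-3p passed. Among the falls, only 10_13692-3p and 10_13355-3p had at least 5 reads in all 3 low-group libraries. The 40 entries not tested were too sparse.

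**Figure D2:**
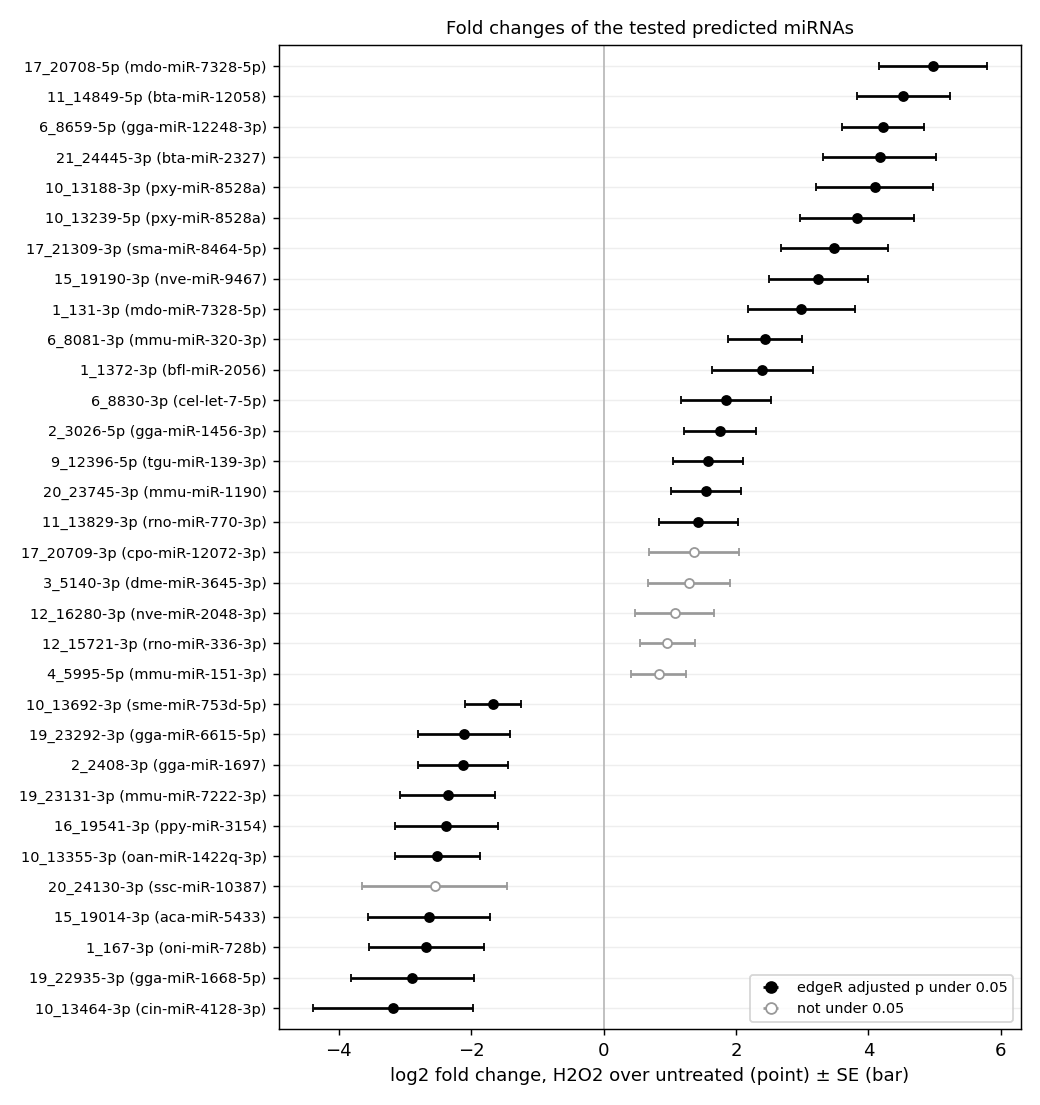
Log2 fold change of H2O2 over untreated exosomes (point) with its SE (bar) for the 32 tested entries, black where the edgeR adjusted p was under 0.05 and grey where it was not. The entries run between 4.97 for 17_20708-5p and -3.18 for 10_13464-3p.

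Together the 33 entries listed as higher made up 7938, 3199 and 4192 CPM in H2O2 replicates 1 to 3, against 1047, 861 and 423 CPM in untreated replicates 1 to 3. A single entry, 17_21309-3p (sma-miR-8464-5p), carried 70.8%, 48.9% and 72.6% of that sum in the H2O2 libraries and 55.1%, 31.8% and 14.6% in the untreated ones. It had 5618, 1563 and 3042 CPM in H2O2 replicates 1 to 3, against 577, 274 and 61.6 CPM in untreated replicates 1 to 3. The groups did not overlap, and untreated replicate 3 lay far under the other untreated libraries. The mean was 3408 ± 2052 CPM in H2O2 and 304 ± 259 CPM in untreated exosomes (SD, n = 3 each), and the log2 fold change was 3.49 ± 0.81 (SE; edgeR adjusted p = 0.0138). Without untreated replicate 1 it was 4.34.

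Smaller folds were fitted for 3 further entries with many reads. The zebra finch-named 9_12396-5p (tgu-miR-139-3p), with a second row on chromosome 9, had 641, 227 and 291 CPM in H2O2 replicates 1 to 3, against 156, 168 and 63.8 CPM in untreated ones. H2O2 replicate 1 stood highest, and the groups did not overlap (log2 fold change 1.58 ± 0.53, edgeR adjusted p = 0.0281). Human hsa-miR-139-3p lies on chromosome 11 and not 9, and was not among the rows used here.
hsa-miR-139-3p: uGGAGACGcggcccuguuggagu
The chicken-named 2_3026-5p (gga-miR-1456-3p), the near copy of hsa-miR-7704, had 109, 120 and 52.0 CPM in H2O2 replicates 1 to 3, against 25.3, 44.6 and 13.7 CPM in untreated ones (log2 fold change 1.76 ± 0.55, edgeR adjusted p = 0.0259). Replicate 3 was the lowest library within each group. For hsa-miR-7704 itself the log2 fold change was 1.61 ± 0.54 (edgeR adjusted p = 0.0281). The lancelet-named 1_1372-3p (bfl-miR-2056) had 132, 45.3 and 74.5 CPM in H2O2 replicates 1 to 3, against 33.8, 9.83 and 4.25 CPM in untreated ones (log2 fold change 2.40 ± 0.76, edgeR adjusted p = 0.0271). Without untreated replicate 1 its log2 fold change was 3.59. Without H2O2 replicate 1 none of these 3 calls was kept, without untreated replicate 1 those of 9_12396-5p and 2_3026-5p were lost, without untreated replicate 2 that of 1_1372-3p, without untreated replicate 3 that of 9_12396-5p and without H2O2 replicate 2 that of 2_3026-5p.

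Several entries were low in untreated exosomes and moderate in H2O2 exosomes. The chicken-named 6_8659-5p (gga-miR-12248-3p) had 266, 124 and 57.8 CPM in H2O2 replicates 1 to 3, against 6.95, 7.94 and 8.88 CPM in untreated ones. The untreated libraries lay close together and the H2O2 libraries far above them. The log2 fold change was 4.23 ± 0.62 (SE; edgeR adjusted p = 0.00325), and 3.51 without H2O2 replicate 1. The cow-named 11_14849-5p (bta-miR-12058) had 61.1, 25.7 and 34.6 CPM in H2O2 replicates 1 to 3, against 1.90, 3.03 and 0.555 CPM in untreated ones, which rest on 6, 8 and 3 reads (log2 fold change 4.53 ± 0.71, edgeR adjusted p = 0.00419). These 2 kept their calls in all 19 alternative settings, among them each library left out in turn and an adjustment as if 2000 miRNAs had been tested. Every setting reused rows that the authors selected for a difference, so this stability is not independent support. The entry 11_14849-5p also needed its H2O2 group to meet the count filter.

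The opossum-named 17_20708-5p (mdo-miR-7328-5p) had the largest fitted fold, with 131, 70 and 50 reads in H2O2 replicates 1 to 3 against 6, 1 and 2 reads in untreated ones. In levels these were 42.5, 28.6 and 12.1 CPM in H2O2 and 1.90, 0.378 and 0.370 CPM in untreated exosomes (log2 fold change 4.97 ± 0.82, edgeR adjusted p = 0.00432). Without untreated replicate 1 the value was 6.08, and a fold against so few reads is loosely set. A second entry with the same match, 1_131-3p (mdo-miR-7328-5p), had 29, 12 and 8 reads in H2O2 replicates 1 to 3 against 4, 1 and 2 in untreated ones (log2 fold change 2.99 ± 0.81, edgeR adjusted p = 0.0196). It lost its call without H2O2 replicate 1, where the log2 fold change was 2.29, and was at 3.73 without untreated replicate 1. It also met the count filter only through the H2O2 group. Its reads were 0.221, 0.171 and 0.160 of those of 17_20708-5p in H2O2 replicates 1 to 3, against 0.667, 1 and 1 in the untreated libraries, where both entries have 6 reads or fewer.

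Entries matched to pxy-miR-8528a, a miRNA of the diamondback moth, were 2 distinct ones that moved in parallel. The entry 10_13239-5p (pxy-miR-8528a) had 168, 424 and 32.7 CPM in H2O2 replicates 1 to 3, against 8.53, 22.3 and 13.1 CPM in untreated ones. The entry 10_13188-3p (pxy-miR-8528a), which shares its counts with a row on chromosome 20, had 70.8, 169 and 13.1 CPM in H2O2 replicates 1 to 3, against 2.53, 6.43 and 5.73 CPM in untreated ones. In both, H2O2 replicate 2 was the highest library, H2O2 replicate 3 the lowest of its group, and the groups did not overlap. The first had 2.38, 2.50 and 2.50 times the reads of the second in H2O2 replicates 1 to 3, and 3.38, 3.47 and 2.29 times in untreated ones. The log2 fold change was 3.83 ± 0.86 for 10_13239-5p and 4.09 ± 0.89 for 10_13188-3p (edgeR adjusted p = 0.0138 and 0.0127). Without H2O2 replicate 2 they were 2.78 and 3.08, and both still passed.

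The cow-named 21_24445-3p (bta-miR-2327), the near copy of hsa-miR-4488, had 13, 26 and 9 reads in H2O2 replicates 1 to 3 against 1 read in each untreated library. The untreated group thus has 3 reads in all, and the ratio of pooled CPM was 18.6 (48 against 3 reads, 95% exact Clopper-Pearson interval 5.99 to 93.2, counting error only; log2 fold change 4.17 ± 0.86, edgeR adjusted p = 0.0115, and 3.38 without H2O2 replicate 2). The sea anemone-named 15_19190-3p (nve-miR-9467) had 12.0, 4.49 and 9.44 CPM in H2O2 replicates 1 to 3, against 1.26, 1.51 and 0.185 CPM in untreated ones (log2 fold change 3.25 ± 0.75, edgeR adjusted p = 0.0138). Its value was 2.62 without untreated replicate 3. Neither call was lost on leaving out any single library. Both entries met the count filter only through the H2O2 group, so they had to differ and this stability adds no support.

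**Figure D3:**
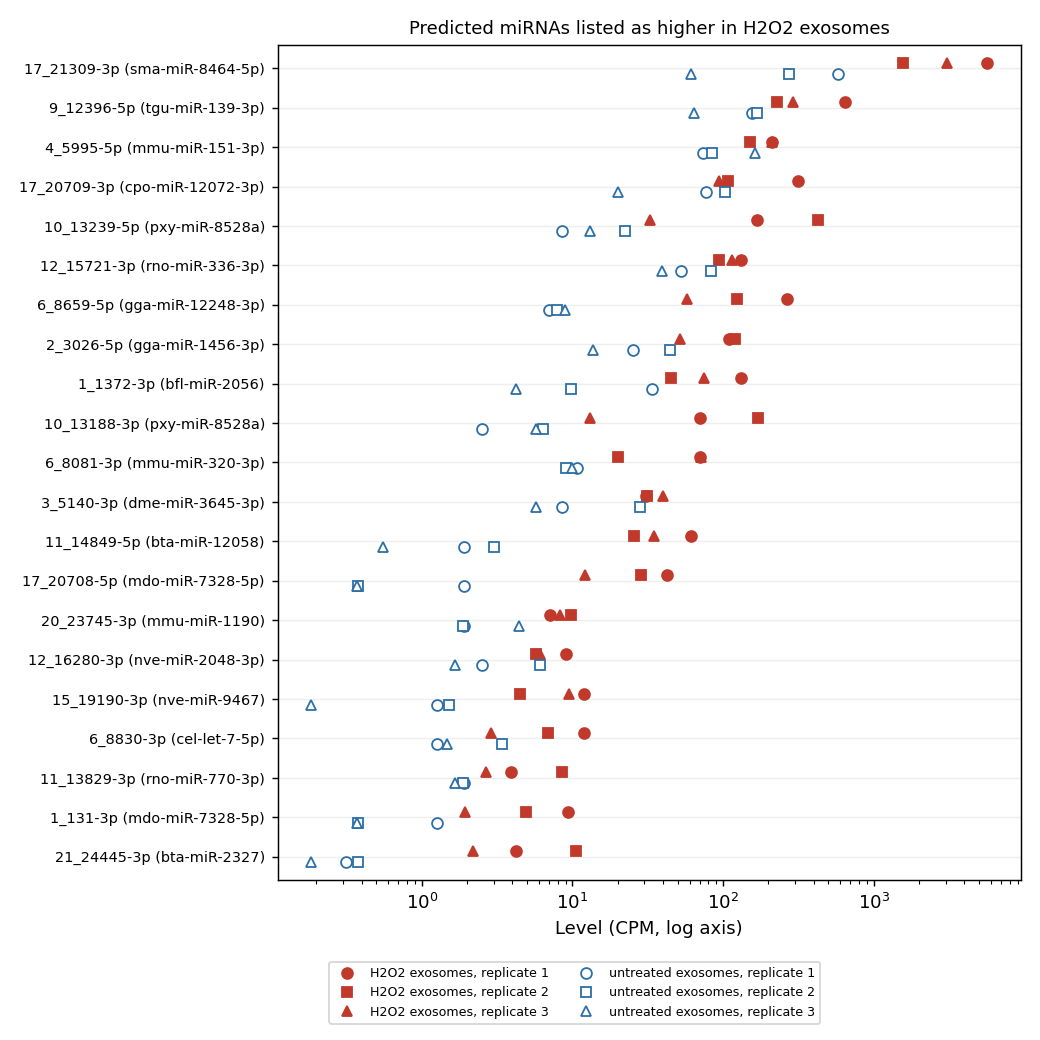
Level in CPM (log axis) of the 21 tested entries listed as higher, with 3 filled points for H2O2 and 3 open points for untreated exosomes, 1 symbol per replicate, ordered by mean level. The 17_21309-3p libraries span 61.6 to 5618 CPM, and in 17 of the rows the H2O2 points all lie right of the untreated ones.

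A number shared with human miRNAs ties an entry to them by name alone, since no sequence of the entries was used. Of the 70 numbers matched, 5 also occur among the known human miRNAs listed here. The mouse-named 6_8081-3p (mmu-miR-320-3p) had 218, 49 and 294 reads in H2O2 replicates 1 to 3, against 34, 24 and 54 reads in untreated ones (log2 fold change 2.44 ± 0.56, edgeR adjusted p = 0.0138), and passed without any single library too. Human hsa-miR-320e, listed too and with the same number, had 211, 88 and 349 reads in H2O2 replicates 1 to 3, against 79, 55 and 130 reads in untreated ones (log2 fold change 1.44 ± 0.44, edgeR adjusted p = 0.0251). Per 1000000 reads, both were highest in H2O2 replicate 3 and lower in H2O2 replicate 2 than in the other H2O2 libraries, and the groups did not overlap for either. The reads of 6_8081-3p were 1.03, 0.557 and 0.842 of those of hsa-miR-320e in H2O2 replicates 1 to 3, against 0.430, 0.436 and 0.415 in untreated ones. Human miR-320 forms differ mainly at their ends, as a pair shows.
hsa-miR-320e: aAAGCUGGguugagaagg
hsa-miR-320b: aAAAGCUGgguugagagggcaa
They share a run of 15 bases starting at base 1 of hsa-miR-320e and base 2 of hsa-miR-320b, so the seed is shifted by a base between them.

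The worm-named 6_8830-3p (cel-let-7-5p) carries the name of let-7, a miRNA conserved between worms and humans that restrains growth and marks differentiated cells. It had 12.0, 6.94 and 2.90 CPM in H2O2 replicates 1 to 3, against 1.26, 3.40 and 1.48 CPM in untreated ones. The groups overlapped, since untreated replicate 2 was above H2O2 replicate 3 (log2 fold change 1.85 ± 0.68, edgeR adjusted p = 0.0355). The call was lost without H2O2 replicate 1, where the value was 1.26, and also on leaving out H2O2 replicate 2 or either of untreated replicates 1 and 3. For scale, the listed human hsa-let-7f-5p had 23141 to 42661 CPM in H2O2 and 9487 to 22150 CPM in untreated libraries and did not pass (log2 fold change 0.90 ± 0.49, edgeR adjusted p = 0.101).
hsa-let-7f-5p: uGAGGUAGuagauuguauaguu
The other let-7 rows listed are minor arms, hsa-let-7i-3p and hsa-let-7g-3p as higher and hsa-let-7a-3p and hsa-let-7c-3p as lower.

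The mouse-named 4_5995-5p (mmu-miR-151-3p) did not pass, with 210, 151 and 210 CPM in H2O2 replicates 1 to 3 against 73.0, 84.3 and 163 CPM in untreated ones (log2 fold change 0.84 ± 0.42, edgeR adjusted p = 0.082). Untreated replicate 3 lay above H2O2 replicate 2, and without it the entry passed at 1.28. Of the human rows with this number, hsa-miR-151a-5p rose (1.21 ± 0.41, edgeR adjusted p = 0.0286), while hsa-miR-151b did not pass, at 1.25 ± 0.56 (edgeR adjusted p = 0.0586). The opossum-named 7_10077-5p (mdo-miR-375) was among the sparse entries, with 0 reads in every H2O2 library against 7, 8 and 0 reads in untreated replicates 1 to 3. The listed human hsa-miR-375-3p, a miRNA known for its role in pancreatic islets, fell, with 2, 0 and 5 reads in H2O2 replicates 1 to 3 against 13, 12 and 25 reads in untreated ones (log2 fold change -2.62 ± 0.72, edgeR adjusted p = 0.0199). The human hairpin lies on chromosome 2, not 7.
hsa-miR-375-3p: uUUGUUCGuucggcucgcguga
The turtle-named 16_19798-5p (cpi-miR-16c-3p) had 3, 4 and 5 reads in H2O2 replicates 1 to 3 against 0, 2 and 1 in untreated ones, too few to test, while the listed hsa-miR-16-2-3p fell (-1.75 ± 0.65, edgeR adjusted p = 0.0371).

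Of the remaining tested entries listed as higher, 2 passed with small folds. The mouse-named 20_23745-3p (mmu-miR-1190) had 7.14, 9.80 and 8.23 CPM in H2O2 replicates 1 to 3, against 1.90, 1.89 and 4.44 CPM in untreated ones (log2 fold change 1.55 ± 0.53, edgeR adjusted p = 0.0286), and was lost without any of the libraries but untreated replicate 3. The rat-named 11_13829-3p (rno-miR-770-3p) had 3.90, 8.57 and 2.66 CPM in H2O2 replicates 1 to 3, against 1.90, 1.89 and 1.66 CPM in untreated ones. Its log2 fold change was 1.43 ± 0.59 (edgeR adjusted p = 0.0494), 0.84 without H2O2 replicate 2, and the call was lost in 16 of 18 alternative settings, and kept on leaving out H2O2 replicate 3 or leaving miR-1246 out of the library totals. The guinea pig-named 17_20709-3p (cpo-miR-12072-3p) did not pass, with 313, 108 and 93.4 CPM in H2O2 replicates 1 to 3 against 76.8, 103 and 20.2 CPM in untreated ones (log2 fold change 1.37 ± 0.67, edgeR adjusted p = 0.0807). Its running number is next to that of 17_20708-5p, whose fitted fold was the largest, and without H2O2 replicate 1 it was at 0.60. The rat-named 12_15721-3p (rno-miR-336-3p) had 131, 94.3 and 115 CPM in H2O2 replicates 1 to 3, against 52.5, 83.2 and 39.0 CPM in untreated ones. Its groups did not overlap, but it did not pass (log2 fold change 0.96 ± 0.41, edgeR adjusted p = 0.0532). The fly-named 3_5140-3p (dme-miR-3645-3p) and the sea anemone-named 12_16280-3p (nve-miR-2048-3p) did not pass either, with log2 fold changes of 1.29 ± 0.62 and 1.07 ± 0.59 (edgeR adjusted p = 0.0754 and 0.104). Without untreated replicate 2 both of these and 12_15721-3p passed, with 3_5140-3p at 2.26 and 12_16280-3p at 1.74.

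Among the entries listed as lower, those with the most reads were near copies of known human miRNAs. The planarian-named 10_13692-3p (sme-miR-753d-5p), the copy of hsa-miR-3158-3p, had 23.4, 14.7 and 26.1 CPM in H2O2 replicates 1 to 3, against 50.9, 72.6 and 81.6 CPM in untreated ones. Every H2O2 library lay under every untreated one, with means of 21.4 ± 5.97 CPM in H2O2 and 68.4 ± 15.8 CPM in untreated exosomes (SD, n = 3 each). The fitted log2 fold change of 10_13692-3p was -1.67 ± 0.43 (edgeR adjusted p = 0.0155). The platypus-named 10_13355-3p (oan-miR-1422q-3p), the near copy of hsa-miR-548e-3p, had 1.62, 7.35 and 2.66 CPM in H2O2 replicates 1 to 3, against 19.3, 30.6 and 15.5 CPM in untreated ones (log2 fold change -2.51 ± 0.64, edgeR adjusted p = 0.0155, and -3.30 without H2O2 replicate 2). Replicate 2 was the highest library of each group. Both lost their calls only without H2O2 replicate 1 and in the adjustment to 2000 miRNAs. The orangutan-named 16_19541-3p (ppy-miR-3154), with the counts of hsa-miR-3179, had 0, 1 and 4 reads in H2O2 replicates 1 to 3 against 9, 8 and 13 reads in untreated ones (log2 fold change -2.37 ± 0.77, edgeR adjusted p = 0.028). It met the count filter only through the untreated group.

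The other tested entries listed as lower had at most 44 reads in a library. The chicken-named 19_23292-3p (gga-miR-6615-5p) had 1.62, 1.22 and 2.18 CPM in H2O2 replicates 1 to 3, against 9.80, 11.0 and 2.22 CPM in untreated ones (log2 fold change -2.11 ± 0.70, edgeR adjusted p = 0.0281). Its groups were separated by less than the level of 1 read, between H2O2 replicate 3 and untreated replicate 3. The tunicate-named 10_13464-3p (cin-miR-4128-3p) had 0, 5 and 2 reads in H2O2 replicates 1 to 3 against 15, 44 and 5 reads in untreated ones. Its groups overlapped in CPM, and its log2 fold change was -3.18 ± 1.21 (edgeR adjusted p = 0.0396), -1.77 without untreated replicate 2 and -4.56 without H2O2 replicate 2. With limma the call was lost. The mouse-named 19_23131-3p (mmu-miR-7222-3p) had 2, 4 and 3 reads in H2O2 replicates 1 to 3 against 13, 24 and 13 in untreated ones (log2 fold change -2.35 ± 0.72, edgeR adjusted p = 0.0251). Without untreated replicate 2 it was at -1.70, and it met the count filter only through the untreated group.

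The lizard-named 15_19014-3p (aca-miR-5433) had 2, 0 and 5 reads in H2O2 replicates 1 to 3 against 12, 23 and 8 in untreated ones (log2 fold change -2.64 ± 0.92, edgeR adjusted p = 0.0306). The chicken-named 2_2408-3p (gga-miR-1697) had 3, 1 and 4 reads in H2O2 replicates 1 to 3 against 5, 9 and 31 in untreated ones (log2 fold change -2.13 ± 0.68, edgeR adjusted p = 0.0274). The first was highest in untreated replicate 2, and at -1.83 without it, and the second rested mostly on untreated replicate 3. The tilapia-named 1_167-3p (oni-miR-728b) had 0, 1 and 1 reads in H2O2 replicates 1 to 3 against 5, 6 and 5 in untreated ones (log2 fold change -2.67 ± 0.87, edgeR adjusted p = 0.0274). Its pooled CPM in H2O2 exosomes was 0.145 of that in untreated ones, on 2 against 16 reads (95% exact Clopper-Pearson interval 0.0162 to 0.617, counting error only). Both 1_167-3p and 2_2408-3p met the count filter only through the untreated group, where they are high. The pig-named 20_24130-3p (ssc-miR-10387) did not pass, with 0, 1 and 5 reads in H2O2 replicates 1 to 3 against 8, 22 and 4 in untreated ones (log2 fold change -2.55 ± 1.09, edgeR adjusted p = 0.0532). It was at -1.32 without untreated replicate 2 and at -4.06 without H2O2 replicate 3, passed neither time, and passed without untreated replicate 3.

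Leaving out a library decided most calls among the falls. Without H2O2 replicate 1, 0 of the 10 passed (edgeR), while 8 of the 11 tested entries listed as lower had an unadjusted p under 0.05. Without untreated replicate 2, 2 passed, 10_13692-3p and 10_13355-3p. Without H2O2 replicate 2, the calls of 19_22935-3p, 16_19541-3p, 15_19014-3p, 19_23292-3p and 2_2408-3p were lost. Those of 1_167-3p, 19_23292-3p, 19_23131-3p, 2_2408-3p and 10_13464-3p were lost without H2O2 replicate 3, and without it 16_19541-3p was at -3.65 and 15_19014-3p at -3.53. Without untreated replicate 1, those of 1_167-3p, 16_19541-3p, 15_19014-3p, 19_23292-3p and 10_13464-3p were lost, and without untreated replicate 3 that of 2_2408-3p. Among the rises, 9 of the 16 passed in every refit that left out 1 library. These include 21_24445-3p and 15_19190-3p, which met the count filter only through the H2O2 group. They also include 17_20708-5p and 11_14849-5p, which needed that group too, with at least 5 reads in only 1 and 2 untreated libraries.

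One matched name occurred in both directions. The entry 13_17153-3p (gga-miR-1668-5p) was listed as higher, with 5, 4 and 4 reads in H2O2 replicates 1 to 3 against 1, 1 and 2 in untreated ones, too few to test. The entry 19_22935-3p (gga-miR-1668-5p) was listed as lower, with 1, 0 and 6 reads in H2O2 replicates 1 to 3 against 7, 27 and 20 in untreated ones (log2 fold change -2.89 ± 0.93, edgeR adjusted p = 0.0274). Its value was -4.62 without H2O2 replicate 3, and the call was lost without H2O2 replicate 1, H2O2 replicate 2 or untreated replicate 2, at -2.09 in the last. A match to the same foreign miRNA thus joined entries on different chromosomes with different counts.

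**Figure D4:**
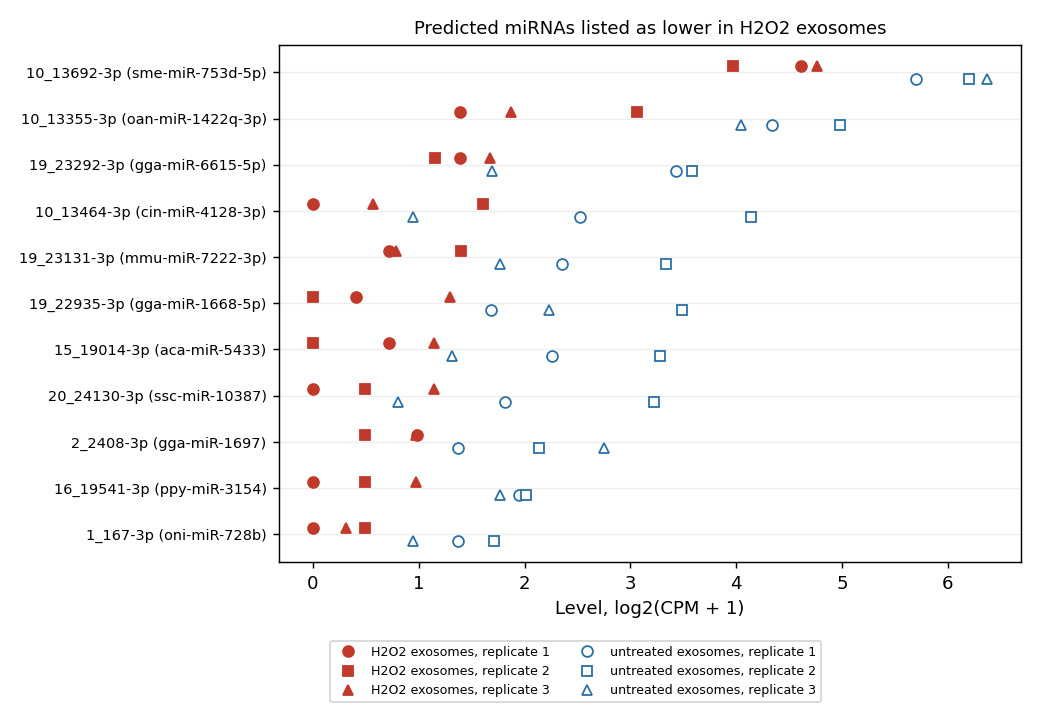
Level as log2(CPM + 1) of the 11 tested entries listed as lower, with 3 filled points for H2O2 and 3 open points for untreated exosomes, 1 symbol per replicate, ordered by mean level. Untreated replicate 2, the open square, is the farthest right in most rows, and the groups overlap for 10_13464-3p and 20_24130-3p.

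The sparse entries make up the larger part of the list. Of the 40 with too few reads to test, 12 were listed as higher and 28 as lower, with 9 to 40 reads over all 6 libraries in the first set and 9 to 34 in the second. In 17 of the 28, no read was seen in any H2O2 library, and in 5 of the 12 none in any untreated library. A count of 0 over the 9660428 pooled H2O2 reads allows up to 0.311 CPM, taken as 3 reads per group, and one over the 11213439 pooled untreated reads up to 0.268 CPM. Such limits cover counting error only, and only that of the 0 count. Folds over a limit, given below, divide the observed pooled level of the other group by it. They leave out counting error in that group's reads and are not lower bounds.

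The 5 entries with 0 reads in untreated exosomes were 16_19414-5p (gga-miR-6573-5p), 1_1513-5p (hco-miR-5950), 15_18634-5p (dsi-miR-2577), 19_22731-3p (mdo-miR-7327-5p) and 12_16506-3p (hpo-miR-10103-3p). Their H2O2 libraries summed to 9 to 11 reads, which puts their pooled level at 3.48-fold to 4.26-fold the untreated limit. The last had 1, 0 and 8 reads in H2O2 replicates 1 to 3, so that 1 library carried it. Without H2O2 replicate 3 it kept 1 read, fewer than the limit.

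Of the 17 entries with 0 reads in H2O2 exosomes, 17_20621-3p (tca-miR-3876-3p) had the most reads, 3, 14 and 5 in untreated replicates 1 to 3. Its pooled untreated level was 6.32-fold the H2O2 limit. Next were 12_16768-3p (api-miR-3034), with 2, 15 and 1 reads, and 1_1206-3p (mmu-miR-7049-5p), with 5, 9 and 3 reads in untreated replicates 1 to 3. They stood at 5.17-fold and 4.88-fold that limit. These folds lean on untreated replicate 2. Without it those of 17_20621-3p and 1_1206-3p were 3.01-fold. The entry 12_16768-3p then kept 3 untreated reads, no more than the limit, so that no fold could be given. Of the 17 folds, none was above 3.76-fold without untreated replicate 2, and 5 of the entries then had no more reads than the limit. The same held for 20_23682-5p without untreated replicate 3. The other 14 entries had 9 to 15 untreated reads in all and stood at 2.58-fold to 4.31-fold the limit. They were 7_10077-5p (mdo-miR-375), 15_19122-3p (mml-miR-583), 17_20797-3p (gga-miR-1710), 17_20724-5p (tgu-miR-215-3p), 7_9635-3p (aca-miR-9573-5p), 14_17812-5p (pte-miR-11955-3p), 2_3695-5p (ssa-miR-301d-5p), 20_23682-5p (bmo-miR-3204a-3p), 16_20336-3p (bta-miR-2292), X_25602-5p (rno-miR-764-3p), 9_12611-5p (gga-miR-1703-3p), 16_19461-3p (gga-miR-1627-5p), 4_5865-3p (bta-miR-2439-5p) and 16_19621-3p (ptr-miR-1275). The last shares its 9 reads with 20_23766-5p (bma-miR-2b-3p) on another chromosome, at 2, 5 and 2 reads in untreated replicates 1 to 3. Untreated reads were also uneven in 2_3648-3p (odi-miR-1468), with 1, 1 and 0 reads in H2O2 replicates 1 to 3 against 1, 28 and 3 in untreated ones.

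Some sparse entries shared a hairpin number or a count with other rows. The entry 13_16953-3p (cte-miR-2705), named after a marine worm, had 4, 4 and 20 reads in H2O2 replicates 1 to 3 against 0, 1 and 11 in untreated ones. The other arm of the same predicted hairpin, 13_16953-5p, had 2, 4 and 6 reads in H2O2 replicates 1 to 3 against 0, 0 and 1 in untreated ones, the counts of hsa-miR-2276-5p, whose hairpin lies on chromosome 13. Both arms of that human hairpin are catalogued.
hsa-miR-2276-5p: gCCCUCUGucaccuugcagacg
hsa-miR-2276-3p: uCUGCAAGugucagaggcgagg
The chimpanzee-named 9_12632-3p (ptr-miR-516b), deposited as 2 rows on chromosome 9, had 0, 0 and 1 reads in H2O2 replicates 1 to 3 against 2, 11 and 4 in untreated ones. Human miR-516b, of the placental chromosome 19 cluster, has a RefSeq hairpin on chromosome 19.

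Untreated replicate 2 held the highest level of 32 of the 39 entries listed as lower, untreated replicate 3 that of 5 and untreated replicate 1 that of 2. Among the known miRNAs listed as lower the same library was highest in 36 of 80. Of the entries listed as higher, H2O2 replicate 1 was the highest library in 17 of 33, H2O2 replicate 2 in 10 and H2O2 replicate 3 in 6. Among the known miRNAs listed as higher, H2O2 replicate 2 was highest in 54 of 75 and H2O2 replicate 1 in 9. Predicted entries with no match were also most often highest in H2O2 replicate 1, in 6 of the 9 listed as higher. Of the 10 such entries listed as lower, untreated replicate 2 was highest in 5 and untreated replicate 1 in 4. The difference between the kinds of entry was not tested.

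**Figure D5:**
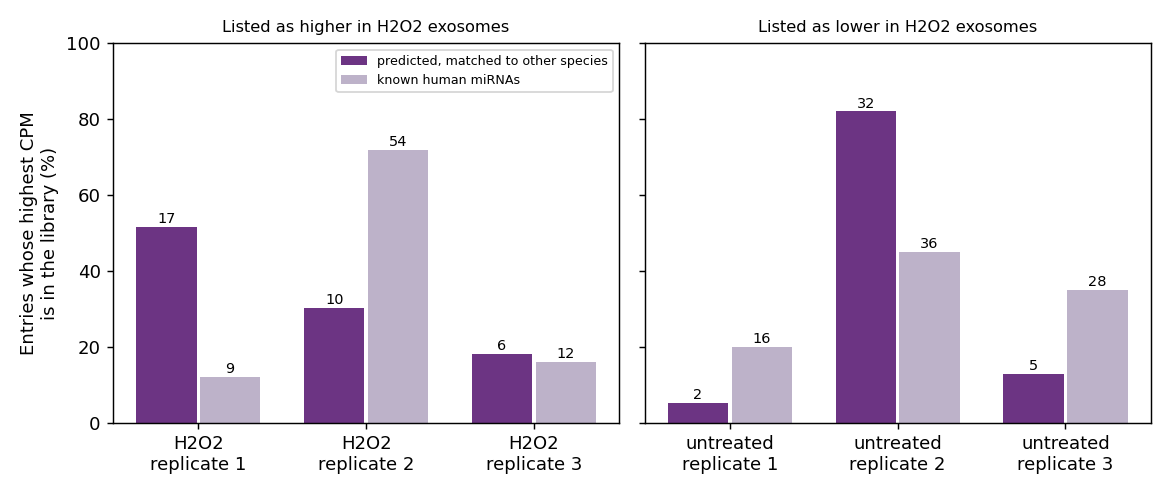
Share of entries (%) whose highest CPM falls in each library, for foreign-named predictions (dark) and known human miRNAs (light), with the number of entries above each bar, for entries listed as higher (left, H2O2 libraries) and lower (right, untreated libraries). Untreated replicate 2 holds 32 of the 39 lower foreign-named entries, against 36 of 80 lower known ones.

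The groups did not overlap in 55 of the 72 entries, 26 of the 33 listed as higher and 29 of the 39 listed as lower, where 80.8% of all 250 distinct entries did not overlap. The foreign-named entries were sparse, with a median of 27 reads over the 6 libraries against 193 for the known miRNAs, and 44.4% had enough reads to test against 80.6% of the known ones. The 19 predicted entries with no match had a median of 33 reads, and 47.4% of them could be tested. By arm, 48 entries were named 3p and 24 were named 5p, and all 11 tested entries listed as lower were 3p.

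The matched names came from 38 species. Counting a name once per distinct entry, 28 of the 73 came from invertebrates, 18 from birds, reptiles and fish, 11 from rodents, 6 each from hoofed and from other mammals, and 4 from apes and monkeys. All 4 ape and monkey names were on entries listed as lower. The choice of entries left out those named after ptr-miR-1246, a chimpanzee miRNA, which were listed as higher. Rodent names were on 7 entries listed as higher and 4 as lower, names from birds, reptiles and fish on 6 and 12, and invertebrate names on 15 and 13, against 33 and 40 over all names. Chicken gave the most names, 10. These counts describe the tables, in which both directions were selected, and were not tested.

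Other small RNAs moved in the same libraries. Human miR-1246 made up 3.32%, 0.261% and 27.4% of the total in H2O2 replicates 1 to 3, against 0.130%, 0.368% and 1.15% in untreated ones, and its part in the levels of H2O2 replicate 3 was not tested beyond the scaling given in the closing part. Of the 9 keratinocyte hairpins looked for, 3 were among the listed rows, and the selected tables cannot show the others. They went both ways. The level of hsa-miR-31-3p was 551 to 592 CPM in H2O2 and 36.7 to 191 CPM in untreated libraries, that of hsa-miR-183-5p 4503 to 5169 CPM in H2O2 and 10100 to 13481 CPM in untreated ones, and that of hsa-miR-205-3p 3.25 to 20.4 CPM in H2O2 and 15.9 to 70.0 CPM in untreated ones. Their sum, mostly hsa-miR-183-5p, was 5057 to 5764 CPM in H2O2 and 10175 to 13689 CPM in untreated libraries. Markers of other cell types were listed as well. Red blood cell miRNAs (2 of 3 hairpins) summed to 7.26 to 13.5 CPM in H2O2 and 30.7 to 52.2 CPM in untreated libraries, a liver miRNA (1 of 1) was at 4.55 to 9.80 CPM in H2O2 and 19.6 to 118 CPM in untreated libraries, and a white blood cell miRNA (1 of 4) at 0.325 to 0.968 CPM in H2O2 and 1.29 to 4.54 CPM in untreated ones. Muscle miRNAs (2 of 4) were at 1.95 to 211 CPM in H2O2 and 2.59 to 12.9 CPM in untreated libraries, and H2O2 replicate 2 alone was high, with hsa-miR-1-3p at 197 CPM there against 1.95 and 3.63 CPM in H2O2 replicates 1 and 3. Their part in the changes above was not tested.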

How the data were processed

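Small RNA of exosomes from 3 H2O2-treated and 3 untreated HaCaT cultures was sequenced. Per the labels' protocols, RNA was extracted with Trizol and libraries made with a NEBNext small RNA kit. Per the submitters' processing notes, bcl2fastq, FastQC, cutadapt and Bowtie 1.1.1 were among the tools. The genome build, the prediction tool and the test are not stated by any source used here. Each deposited table holds, per the file headers, a read count and a normalized value for every library. The authors added to each row an unadjusted p-value, a fold (ratio) and its log2. The normalized value equals the count per 1000000 reads (CPM) of a total per library, which was recovered from the deposited counts.

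The test was edgeR 4.0.16 under R 4.3.3 on the deposited counts (estimateDisp, glmQLFit, glmQLFTest, two-sided), with the recovered totals and no composition factor. It used 1 row per set of identical counts and entries with at least 5 reads in at least 3 libraries. The code was also run on simulated counts, with most entries unchanged and the same fixed spread for all. The rows here were all selected for a difference, so that run cannot show how many calls in these data are true. SE is the log2 fold change divided by the root of F. The spread was estimated from selected rows, which makes every adjusted p-value optimistic to a degree that cannot be measured here. Members and lists were chosen with earlier results of these data known. By rule, every tested member is named, with values per library for up to 10 of the most abundant per direction and for those sharing a name with another row. The search for known miRNAs with nearly the same counts was added after the values were seen. Alternatives used DESeq2 1.42.0, limma 3.58.1 on log2(CPM + pseudocount), other scalings and filters, a replicate block and each library left out. Sequences are from RefSeq (GRCh38.p14), and the species names follow the 3-letter codes in the names.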

Additional observations from a re-analysis of the deposited data

How the results depend on the processing

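No alternative turned the direction of any of the 32 tested entries. Counts of calls among the foreign-named entries stayed within 1.5 times of 16 rises and 10 falls under median-of-ratios and TMM scaling, totals without miR-1246 reads, DESeq2, limma with pseudocounts of 1, 0.1 and 5, every row kept and predicted rows fitted alone. The scalings moved the median log2 fold change of all tested entries by -0.25, -0.13 and 0.23. With no filter 19 rose, of 33 then tested, and 30 fell, of 39 then tested. Of those 39, 17 had no read in any H2O2 library and had to differ. With at least 20 reads 12 rose, of 15 then tested, and 2 fell, of 2 then tested. The share of all entries called was counted for the main test alone, so counts in the other settings have no background beside them. Adjusted as if 2000 miRNAs had been tested, 2 rose (6_8659-5p and 11_14849-5p) and 0 fell with edgeR, while 17 and 11 had an unadjusted p under 0.05. With DESeq2 in place of edgeR, 15 rose and 11 fell. Leaving out each library gave 9 to 16 rises and 0 to 10 falls. Replicate numbers were not taken to pair the samples, since the labels do not say that a number marks a shared batch. Correlations of deviations were 0.21, 0.08 and 0.21 for pairs 1, 2 and 3. Each sample correlated best with its own number except H2O2 replicate 2, at 0.0854 with untreated replicate 1 against 0.0813 with untreated replicate 2. With the replicate block 17 rose and 10 fell. The 40 sparse entries had too few reads for the test.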
